A study of Mus musculus with 6 samples.

Results

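The 60 members described here are the joining (J) segments of the mouse T cell receptor alpha locus, chosen as every gene whose symbol is Traj followed by a number, out of 55401 genes in the tables. They carry the numbers 1 to 61, with no member numbered 10, and all have a line in every table. Transcripts were measured by RNA sequencing in splenic CD4+ T cells of mice, isolated as naive cells by bead enrichment and then activated for 24 h by CD3 and CD28 stimulation. The control group (genotype WT) has 3 libraries. The Satb1 conditional knockout group (Satb1 flox/flox CD4-Cre, called Satb1 cKO below) also has 3, and its Cre is driven by Cd4 regulatory sequences, which become active in thymocytes and stay active in CD4+ T cells. Whether the control mice had Cre or loxP alleles is not given in the labels. Nor do they say that replicates are separate mice, so p-values measure the spread between these libraries, which could be technical only. SATB1 is a nuclear protein that organises chromatin in T lineage cells.

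The alpha chain of the T cell receptor is assembled in thymocytes, where the RAG recombinase joins 1 of many variable (V) segments to 1 of the J segments. J segments lie in a row between the V segments and Trac, the constant region gene, and are numbered from the Trac end, so that Traj1 is next to Trac and Traj61 is nearest to the V segments. Joining removes the DNA between the chosen V and J segments, while the J segments between the chosen one and Trac stay in place, in the intron that is spliced out of the alpha chain transcript. A first joining tends to use J segments of the V end, and further rounds on the same allele replace them by segments nearer to Trac. Germline transcripts of unjoined J segments start at promoters of the V end, among them the T early alpha promoter before Traj61.

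On GRCm38 the members span chr14:54155005-54218842 on the plus strand, 63.8 kb, with Traj1 1.68 kb and Traj61 65.4 kb before Trac (chr14:54220521-54224206). GENCODE annotates 51 of them as J genes and 9 as J pseudogenes. They are 29 to 72 bases long (median 61). No other annotated gene on either strand lies between the first and the last member, and no member overlaps another gene. The following segments were chosen because the results turn on them or because they join the invariant chains of unconventional T cells. All are written 5′ to 3′, on the plus strand, from GENCODE M21, and capitals mark the 12 bases that match the codons of the FGXG motif, the glycine hinge of receptor J regions.
Traj1 (chr14:54218814-54218842): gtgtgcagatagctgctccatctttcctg
Traj2 (chr14:54217836-54217901): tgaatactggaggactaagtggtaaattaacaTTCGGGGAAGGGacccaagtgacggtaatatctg
Traj4 (chr14:54216291-54216353): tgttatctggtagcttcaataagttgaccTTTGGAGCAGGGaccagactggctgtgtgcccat
Traj8 (chr14:54209918-54209954): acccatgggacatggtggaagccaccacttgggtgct
Traj11 (chr14:54207139-54207197): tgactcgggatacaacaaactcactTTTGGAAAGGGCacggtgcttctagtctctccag
Traj14 (chr14:54205111-54205144): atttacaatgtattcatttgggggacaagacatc
Traj18 (chr14:54200777-54200842): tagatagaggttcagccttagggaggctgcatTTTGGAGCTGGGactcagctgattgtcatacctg
Traj33 (chr14:54185358-54185414): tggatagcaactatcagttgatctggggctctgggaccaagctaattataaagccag
Traj39 (chr14:54179962-54180024): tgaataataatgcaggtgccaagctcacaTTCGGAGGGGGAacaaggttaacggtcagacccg
Traj42 (chr14:54175773-54175836): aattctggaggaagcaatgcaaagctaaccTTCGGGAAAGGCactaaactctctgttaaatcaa
Traj61 (chr14:54155005-54155076): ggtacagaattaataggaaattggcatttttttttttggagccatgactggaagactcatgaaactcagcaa
Traj1, Traj8, Traj14 and Traj61 are annotated pseudogenes, and none of these 4 holds the motif. On the strand shown, 42 of the 51 J genes (82.4%) and 1 of the 9 pseudogenes (11.1%) held it, the latter Traj54. Among transcripts of other receptor J genes 13 of 19 did, and among the first 60 bases of protein-coding transcripts 0.815% of 58781. Traj33 is one of the J genes without a match. A missing match says only that these letters are not in the segment.

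Each library held 14895389 to 20266626 reads counted on genes, of which 405 to 682 fell on the 60 members, 2999 in all. Satb1 stood at 711, 850 and 726 CPM (the count normalised to sequencing depth, here with TMM-scaled library sizes) in the control libraries. In Satb1 cKO it stood at 425, 545 and 461 CPM, a lower level in each knockout library. Satb1 reads thus remained in each of them, and counts per gene do not show which exons those reads cover. Cd4, Cd3e and Trac, which define the labelled cells, were read in every library, but Cd4 itself fell from 699.98 ± 19.9 to 208 ± 4.05 CPM (SD, n = 3), while Cd8a, which marks the other main T cell class, rose from 0.791 ± 0.243 to 6.27 ± 1.39 CPM. Cd8b1, the other CD8 gene, stood at 18.1 ± 1.98 and 19.8 ± 2.19 CPM, with overlapping groups (edgeR adjusted p = 0.373). Markers of other cells also differed between the groups. Their summed levels were 3.54 to 7.25 CPM in control and 9.48 to 11.9 CPM in Satb1 cKO for 6 B cell genes. Of these, 2 of 5 tested were called higher, and Cd79a, Ebf1 and Pax5 had overlapping groups. Cd79b had the largest change, from 0.472 ± 0.159 to 3.96 ± 0.286 CPM. For 5 myeloid genes the sums were 9.77 to 12.5 and 45.1 to 106 CPM, and for 4 red cell genes 22.6 to 28.4 and 280 to 1628 CPM. Reads on no annotated feature, which include intronic reads, made up 9.34 ± 0.158% (SD, n = 3) of a control library and 7.45 ± 0.149% of a Satb1 cKO library. The part of these differences in the Traj results was not tested.

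Reads were densest beside Trac in each of the 6 libraries and sparse at the V end. The decline was not even: J 21 to 30 and J 31 to 40 held 58 and 60 reads in Satb1 cKO replicate 2 and 62 and 88 in replicate 3, a rise, whereas all 3 controls and Satb1 cKO replicate 1 declined there. Over both groups, the 9 segments with J numbers up to 10 held 305 reads per 100 bases, those of 11 to 20 held 101, of 21 to 30 62.3, of 31 to 40 55.4, of 41 to 50 17.3 and of 51 to 60 8.65. The pseudogene Traj1 had the most reads over the 6 libraries, 313, or 1079 per 100 bases, of which 106 came from control replicate 1; Traj2, a longer segment with 279, had more reads than Traj1 in 4 of 6 libraries. Traj2 had 423 per 100 bases and Traj3 330, whereas Traj61, at the other end, had 15.3. Where a read counts by touching a segment, reads do not grow in proportion to length, and values per base run high for short segments. Across the 60 segments the rank correlation of J number with reads per base ran from -0.84 to -0.92 in the control libraries and from -0.79 to -0.82 in Satb1 cKO. This is a description across segments, which share library and locus and are not independent replicates. Every member had at least 2 reads over the 6 libraries, and 39 had a read in each library. All 9 members up to J 10 and all 10 of J 11 to 20 did so, as did 1 of 10 in J 41 to 50 and 0 of 10 in J 51 to 60.

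**Figure D1:**
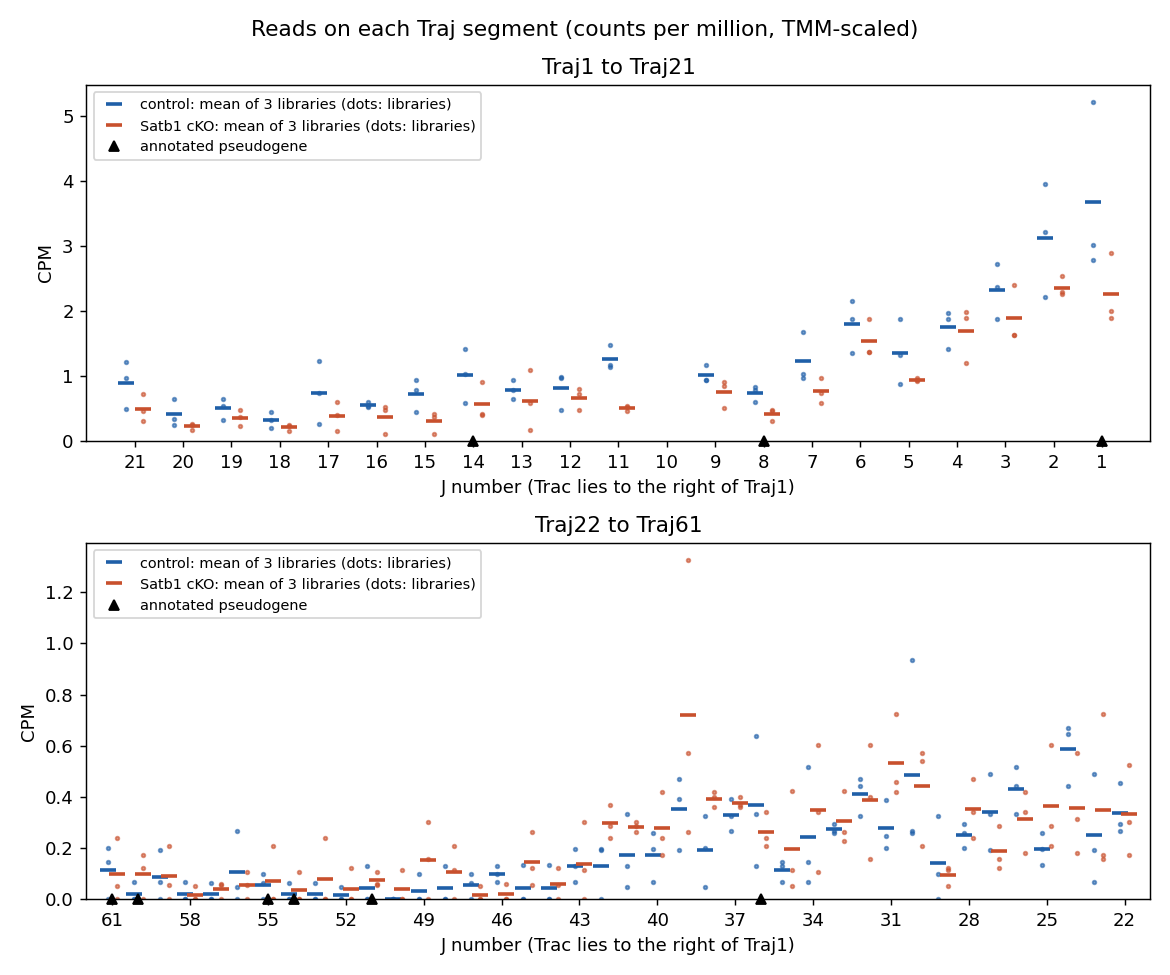
CPM of each Traj segment by J number, with 1 dot per library, a bar for the mean of 3 libraries, and triangles for annotated pseudogenes; Trac lies to the right and the panels have different vertical axes. The segments of highest level are Traj1 and Traj2, at means of 3.67 and 3.13 CPM in control and 2.26 and 2.36 CPM in Satb1 cKO.

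Segments annotated as pseudogenes were read as well. Traj14, of 34 bases, had 79 reads over the 6 libraries, and its neighbours Traj13 and Traj15 had 71 and 53. Traj8, of 37 bases, had 60 reads between Traj7 with 101 and Traj9 with 91. Per 100 bases, a scale that can favour the shorter Traj8, it held 162 reads, Traj7 171 and Traj9 157. Traj36 had 34 reads, Traj35 16 and Traj37 37. The 9 pseudogenes together took 18.8 ± 3.49% (SD, n = 3) of Traj reads in control and 14.95 ± 0.845% in the knockout, with overlapping groups. Of their 519 reads, 313 were on Traj1. A read counts for a segment in HTSeq's usual mode when any of its bases touches that segment and no other gene, so reads that run from a segment into unspliced flanking sequence are counted, and spliced reads that also touch Trac or a V segment are set aside as ambiguous. The sources used here do not say which mode was used. The counts are therefore not a census of the J segments in finished receptor chains.

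The comparison of Satb1 cKO with control asks how reads along the J row differ between the groups. In Satb1 cKO the bins of segments near Trac had lower levels, and the bin of J 41 to 50, toward the V end, had higher levels. For J numbers up to 10, the control libraries held 17.7, 15.8 and 17.5 CPM and the Satb1 cKO libraries 11.7, 11.9 and 14.2 CPM (means 16.99 ± 1.08 and 12.6 ± 1.41, SD, n = 3). All 3 knockout libraries lay under all controls, and their mean was 74.2% of the control mean. For J 11 to 20, the controls held 7.57, 7.31 and 6.47 CPM and Satb1 cKO 3.93, 3.09 and 5.60 CPM, again without overlap and with a mean at 59.1% of control. For J 21 to 30, the controls held 4.18, 3.49 and 4.08 CPM and Satb1 cKO 2.83, 3.31 and 3.74 CPM, and the groups overlapped. This bin marks the middle of the row, where the difference was within the spread of the libraries.

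Toward the V end the order turned. For J 31 to 40, the controls held 2.95, 2.41 and 2.85 CPM and Satb1 cKO 2.67, 3.43 and 5.30 CPM. The groups overlapped, and the ratio of means, 1.39, leaned on Satb1 cKO replicate 3: its log2 value was 0.47 with that library and 0.16 without it. For J 41 to 50, the controls held 0.737, 0.737 and 0.777 CPM and Satb1 cKO 1.31, 1.03 and 1.45 CPM, without overlap and with a ratio of means of 1.68. These levels rest on 15, 11 and 12 reads per control library and 25, 18 and 24 per Satb1 cKO library. For J 51 to 60, with 4, 7 and 9 control reads and 15, 7 and 10 Satb1 cKO reads, the groups overlapped. The log2 ratio of means there was 0.52, and 0.18 without control replicate 1. Traj61 had 3, 3 and 0 reads in control and 1, 0 and 4 in Satb1 cKO, too few to compare.

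**Figure D2:**
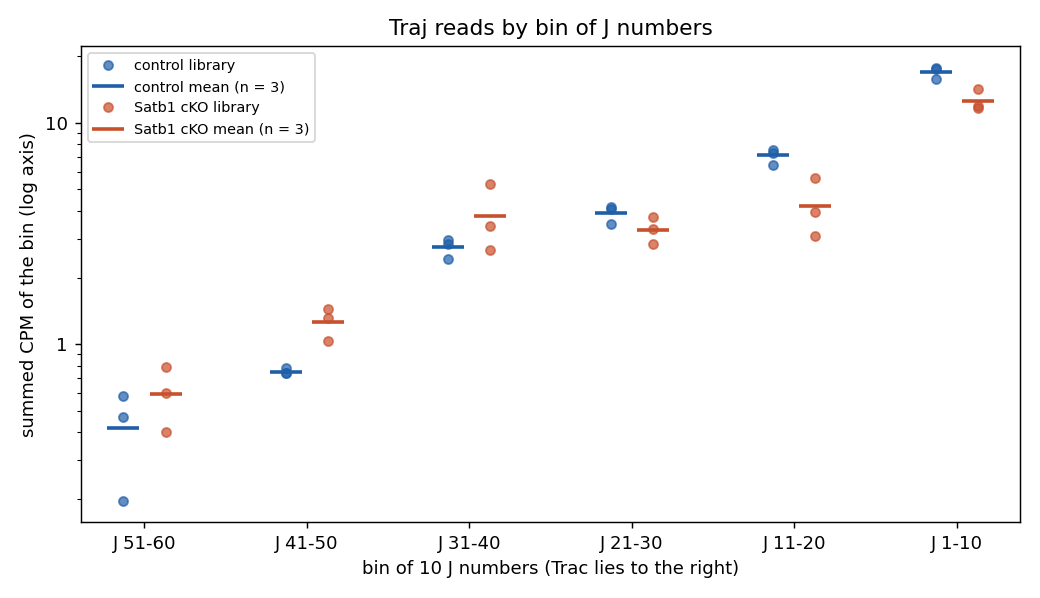
Summed CPM of the Traj segments in bins of 10 J numbers on a log axis, with 1 point per library and a bar for the mean of 3; Traj61 is left out. The 3 Satb1 cKO libraries lie under the controls at J 1 to 10 and J 11 to 20 and over them at J 41 to 50.

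No p-value is given for sums over the members, which were chosen with earlier results known, and an exact permutation test of 3 against 3 libraries cannot go below p = 0.1. The segments of a bin mostly went the same way. In an edgeR fit without a filter on low counts, which gives each of the 60 a value, the log2 fold change was under 0 for 9 of 9 segments up to J 10, for 10 of 10 in J 11 to 20 and for 7 of 10 in J 21 to 30. It was over 0 for 8 of 10 in J 31 to 40, 7 of 10 in J 41 to 50 and 8 of 10 in J 51 to 60, many of them on a handful of reads. Of all 26132 genes in that fit, 50.2% were under 0. Segments of a bin share locus and libraries, and their reads make up the bin sums. These counts of direction are therefore no independent support for the sums. Because this is bulk RNA, fewer cells of a kind and less RNA per cell cannot be told apart.

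Shares of a library's own Traj reads do not depend on how libraries are scaled. They add up to the whole, so a lower share in some bins raises the shares of others. J 11 to 20 took 22.6%, 24.1% and 20.1% of Traj reads in control and 16.9%, 13.3% and 17.99% in Satb1 cKO. J 31 to 40 took 8.80%, 7.95% and 8.84% in control and 11.5%, 14.8% and 17.02% in Satb1 cKO, and J 41 to 50 took 2.20%, 2.43% and 2.41% against 5.63%, 4.44% and 4.64%. In these 3 bins the shares of the groups did not overlap, whereas in CPM the groups overlapped for J 31 to 40. Counting error is wide at this depth: for J 41 to 50, the 95% Wilson intervals reached from 1.34 to 4.30% over the control libraries and from 2.83 to 8.18% over Satb1 cKO. J 1 to 10 took 52.9%, 51.9% and 54.2% in control and 50.2%, 51.4% and 45.6% in Satb1 cKO and did not overlap either. In J 1 to 10, J 11 to 20, J 31 to 40 and J 41 to 50 the Wilson intervals of the nearest control and Satb1 cKO libraries overlapped. J 21 to 30 took 12.2 ± 0.629% and 12.8 ± 1.30% (SD, n = 3), with overlap. Where Traj61 had no read, the floor was set at 3 reads of the total: 0 of 498 reads in control replicate 3 allows a share of up to 0.602%, and 0 of 405 in Satb1 cKO replicate 2 up to 0.741%. Intervals and floors cover counting error only.

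**Figure D3:**
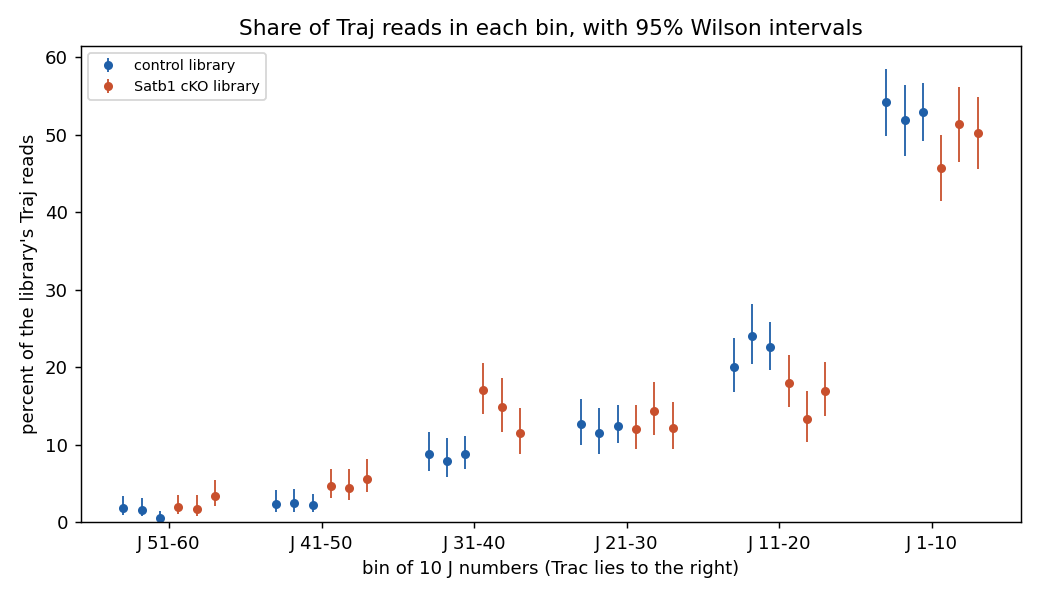
Percent of each library's Traj reads in each bin of 10 J numbers, with 95% Wilson intervals that cover counting error only; Traj61 is left out of the plot but kept in the total. Shares of J 31 to 40 and J 41 to 50 lie above all controls in the 3 Satb1 cKO libraries. The share of J 11 to 20 lies under all controls. Shares of a library are tied to each other, and in CPM the groups overlapped for J 31 to 40.

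The mean J number of a Traj read gathers the profile in 1 value per library. It was 13.1, 13.5 and 13.3 in control and 16.2, 15.7 and 16.97 in Satb1 cKO (means 13.3 ± 0.185 and 16.3 ± 0.631, SD, n = 3). The range within each group was narrower than the distance between the groups. Compared over bins, with J 51 to 61 joined, read profiles of 2 libraries of the same group gave chi-square values of 0.457 to 1.54 per degree of freedom (6 pairs), where 1 is sampling noise. For 2 libraries of different groups it was 2.55 to 6.49 (9 pairs). These values compare libraries and not conditions. After the bins had been seen, the members were also joined into J 1 to 20 (19 segments) and J 41 to 61 (21 segments). J 41 to 61 held 22, 21 and 21 reads in control and 41, 25 and 38 in Satb1 cKO, or 3.23%, 4.64% and 4.22% of Traj reads against 9.23%, 6.17% and 7.35%. J 1 to 20 held 75.5%, 75.9% and 74.3% against 67.1%, 64.7% and 63.6%.

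Over all 60 members together the groups overlapped. The summed members stood at 33.5, 30.4 and 32.2 CPM in control and at 23.3, 23.1 and 31.2 CPM in Satb1 cKO, where replicate 3 lay within the control range. Trac, the constant region to which every alpha chain transcript is spliced, stood at 291, 274 and 286 CPM in control and at 243, 252 and 246 CPM in Satb1 cKO and fell by 0.20 on the log2 scale (SE 0.040; edgeR's quasi-likelihood test, Benjamini-Hochberg adjusted p = 0.00192). Per 1000 Trac reads, the members held 115, 111 and 113 reads in control and 96.0, 92.0 and 126 in Satb1 cKO. On this scale J 1 to 10 held 60.9, 57.5 and 61.2 reads in control and 48.2, 47.3 and 57.7 in Satb1 cKO, and J 11 to 20 held 26.0, 26.7 and 22.66 against 16.2, 12.3 and 22.74. In both bins Satb1 cKO replicate 3 just reached the lowest control, so the groups overlapped relative to Trac. J 31 to 40, at 10.1, 8.80 and 9.97 against 11.02, 13.6 and 21.5, and J 41 to 50, at 2.53, 2.69 and 2.72 against 5.40, 4.09 and 5.87, lay above all controls in the 3 knockout libraries. In the ranges joined after the bins had been seen, J 1 to 20 held 86.9, 84.1 and 83.8 in control and 64.4, 59.5 and 80.5 in Satb1 cKO, and J 41 to 61 held 3.71, 5.14 and 4.76 against 8.86, 5.68 and 9.29, both without overlap.

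Single segments had enough reads for a test in 15 of 60 cases, all of them with J numbers up to 21. They held 66.1% of Traj reads. A gene passed the filter by its counts over libraries, so the 45 others, with 2 to 55 reads each, were not tested and their count is no finding. Of the 15, 1 fell and 0 rose in Satb1 cKO, where 20.7% of the 13364 tested genes fell and 21.6% rose. Among the 3240 tested genes at a mean of at most 4 CPM in each group, a level limit chosen after the values were seen, 8.86% fell. By count of calls the segments therefore do not stand out from other genes. A segment was tested when 3 of the 6 libraries reached 0.584 CPM. Of the 15, 6 reached it in all libraries of either group, 3 by libraries of both groups together, and 6 (Traj7, Traj8, Traj9, Traj11, Traj13 and Traj14) by the control group alone, none by the knockout group alone. The tested segments are therefore not a neutral sample of the row, and no summary over them is given. Library sizes set by Trac reads shifted the median log2 fold change of all genes from 0.003 to 0.20 and the split of calls from 2885 higher and 2766 lower to 5833 (43.6%) and 1171 (8.76%). With them, 1 of the 15 fell and 0 rose.

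The segment that fell was Traj11, a J gene 13.3 kb before Trac whose sequence, with its FGXG match, is given above. It held 30, 17 and 18 reads in control and 10, 8 and 9 in Satb1 cKO, or 1.47, 1.14 and 1.16 CPM against 0.524, 0.457 and 0.542 CPM. Every knockout library was under every control and none reached the level of the filter, so that Traj11 was tested through the controls alone. edgeR put its log2 fold change at -1.31 (SE 0.312, adjusted p = 0.00568). It was also called in 10 of 10 alternatives, with edgeR or DESeq2 adjusted p from 0.00531 to 0.0335. As refits of the same libraries, the alternatives are no independent support for Traj11. Its neighbours Traj9 (log2 fold change -0.42, SE 0.326) and Traj12 (-0.31, SE 0.385) did not pass the test.

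Traj1, the 29-base pseudogene beside Trac, held 106, 45 and 43 reads in control and 36, 35 and 48 in Satb1 cKO. Control replicate 1, at 5.21 CPM, stood above the other controls at 3.02 and 2.78, and Satb1 cKO replicate 3, at 2.89 CPM, lay within the control range. Its log2 fold change of -0.73 (SE 0.279, edgeR adjusted p = 0.0552) just missed the threshold. Without control replicate 1 it was -0.38 (edgeR adjusted p = 0.282), and with library sizes from Trac reads -0.52 (adjusted p = 0.127). In other edgeR fits, Traj1 was called when all genes with a read were tested (adjusted p = 0.00562), a fit in which 2 of 60 members and 11.5% of 26132 genes fell, and when control replicate 2 or 3 or Satb1 cKO replicate 3 was left out (adjusted p = 0.0495, 0.0373 and 0.0388). Traj2 held 45, 48 and 61 reads in control and 43, 40 and 42 in Satb1 cKO, with a log2 fold change of -0.39 (SE 0.237). It was called without control replicate 1 (log2 fold change -0.62, edgeR adjusted p = 0.0447), while without control replicate 3 its log2 fold change was -0.19 (adjusted p = 0.602). Both calls therefore depend on which libraries enter, and that of Traj1 also on the filter on low counts.

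Traj3 held 48, 28 and 42 reads in control and 31, 42 and 27 in Satb1 cKO, with overlapping groups. Traj4 held 40, 21 and 29 against 36, 21 and 33, and its log2 fold change of -0.06 (SE 0.271) was the smallest in size among the tested segments. Traj5 held 27, 13 and 29 against 18, 16 and 16. The groups overlapped for Traj4 and for Traj5. Traj6, which with 172 reads stood out from Traj5 with 119 and Traj7 with 101, held 38, 32 and 21 against 26, 24 and 31, also with overlap. Traj7 held 21, 25 and 15 reads against 11, 13 and 16, and Traj9 held 19, 14 and 18 against 16, 9 and 15. The pseudogene Traj8 held 17, 9 and 12 against 6, 8 and 8. In CPM, which accounts for library depth, Traj7, Traj8 and Traj9 were without overlap. Traj8 stood at 0.603 to 0.836 CPM in control and 0.315 to 0.482 in Satb1 cKO. For Traj7 the lowest control, at 0.971 CPM, lay barely over the highest Satb1 cKO library, at 0.964 CPM. None of these 3 segments passed the test, the smallest adjusted p being that of Traj8, 0.0936 in edgeR's test.

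Traj12 held 20, 7 and 15 reads in control and 9, 14 and 12 in Satb1 cKO. Traj13 held 13, 14 and 12 against 11, 3 and 18. The pseudogene Traj14 held 12, 21 and 16 against 8, 7 and 15. All 3 segments had overlapping groups. Traj17 held 25, 11 and 4 reads in control and 3, 7 and 10 in Satb1 cKO, so that control replicate 3 lay among the knockout libraries. Traj21, the tested segment farthest from Trac at 21.7 kb, held 10, 18 and 15 against 6, 8 and 12, with a log2 fold change of -0.80 (SE 0.449, edgeR adjusted p = 0.175).

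**Figure D4:**
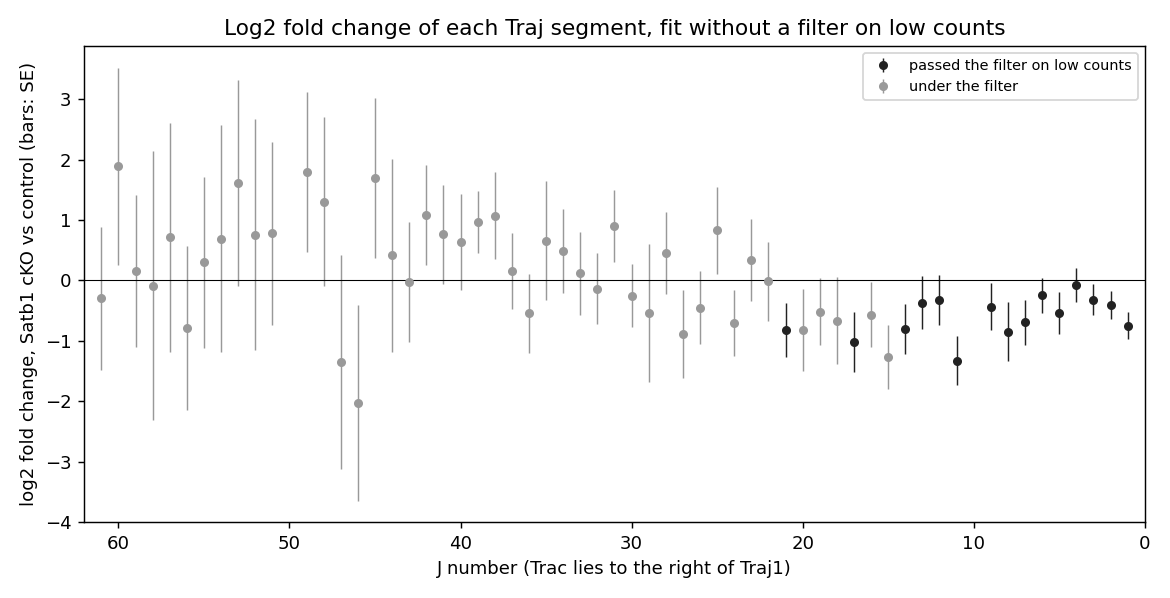
Log2 fold change (Satb1 cKO against control, bars for SE) of each Traj segment by J number from the fit without a filter on low counts; dark points passed the filter in the main test, and Traj50, with 0 control reads, is left out. All points up to J 20 lie under 0, and most from J 31 to J 60 lie over 0 with wide errors.

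Of the 45 segments under the filter, Traj39 had the most reads, 55. It held 8, 7 and 3 in control and 5, 10 and 22 in Satb1 cKO, and the count of 22 in Satb1 cKO replicate 3 is 25% of that library's reads in J 31 to 40. Traj31 held 5, 3 and 6 reads against 8, 8 and 12, Traj38 held 1, 3 and 5 against 8, 7 and 6, and Traj42 held 4, 0 and 3 against 7, 5 and 4. In CPM the 3 knockout libraries lay above the 3 controls for each of these. They are the only members without overlap in that direction, 3 of 60, while 6 of 60 were without overlap in the other (Traj7, Traj8, Traj9, Traj11, Traj15 and Traj46). Of all 26132 genes with a read, 17% and 15.8% were so, which leaves both counts under the background. Traj50 had 0 reads in control and 2 in Satb1 cKO, and Traj58 had 1 and 1.

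Traj18 and Traj33 join the near-invariant alpha chains of natural killer T (NKT) cells and of mucosal-associated invariant T (MAIT) cells, with Trav11 and Trav1. Traj18 held 9, 3 and 5 reads in control and 3, 4 and 4 in Satb1 cKO, and Traj33 held 6, 4 and 4 against 5, 4 and 7. Both had overlapping groups. The 28 reads of Traj18 were fewer than those of Traj17 (60) and Traj19 (45), and Traj33, with 30, stood beside Traj32 with 41 and Traj34 with 30. Trav11 had 2 reads over the 6 libraries and its near-identical copies Trav11d and Trav11n 1 and 7, among which reads may be split or dropped. Zbtb16, the transcription factor gene that defines both cell types, stood at 0.134 to 0.246 CPM in control and 0.241 to 0.367 CPM in Satb1 cKO. Trav1 fell, with 1.05 ± 0.303 CPM in control and 0.289 ± 0.171 in the knockout (SD, n = 3). Its log2 fold change was -1.89 (SE 0.450, edgeR adjusted p = 0.0057). All 3 controls and no knockout library reached the level of the filter, 0.584 CPM, so Trav1 was tested through the controls alone. It had 70 reads in all. Of 59 tested Trav segments 19 fell and 8 rose, where 20.7% of all tested genes fell and 21.6% rose. Klrb1c, a surface receptor gene of NKT and natural killer cells, had 34 reads over the 6 libraries, with overlapping groups.

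Other genes of the receptor locus and of its assembly were read from lists. Rag1 had 18 reads and Rag2 0 over the 6 libraries, which for Rag2 allows up to 3 reads, and Ptcra, a gene of immature thymocytes, had 4. Of 14 tested V(D)J recombination and end-joining genes, 6 fell and 0 rose (20.7% and 21.6% of all tested genes did), among them Prkdc, the DNA-dependent kinase (log2 fold change -0.64), Hmgb2, a RAG cofactor (-0.68), and Atm (-0.67). Of 20 factors of the locus and its enhancer, 11, Satb1 itself included, fell and 4 rose, against the same 20.7% and 21.6%. The enhancer-binding factor genes Lef1, Tcf7, Ets1 and Runx1 fell (-0.99, -0.64, -0.64 and -0.28) and Runx3 rose (0.98). On the same list Creb1 rose (0.31), and Gata3 and Myb had overlapping groups. Of 11 tested receptor chain and CD3 genes, 5 fell (Trac, Trbc1, Trbc2, Cd3d and Cd247). The 4 that rose were Trdc, Tcrg-C1, Tcrg-C2 and Tcrg-C4, the constant regions of gamma-delta T cells. Trdc lies just before the J row and is removed by V to J joining on the same allele. Its level was 3.97 ± 1.05 CPM in control and 8.43 ± 0.889 in the knockout (SD, n = 3), a log2 fold change of 1.09. Dad1, on the far side of Trac and its enhancer, rose by 0.18 on the log2 scale (SE 0.051), with 83.5 ± 4.81 CPM in control and 94.4 ± 2.17 in the knockout (SD, n = 3). The 6 marker genes of gamma-delta T cells summed to 7.05 to 10.9 CPM in control and 19.5 to 25.1 CPM in Satb1 cKO. They include the 4 constant regions that rose. Of the others, Sox13 was not called (edgeR adjusted p = 0.152), and Cd163l1, with 13 reads, had overlapping groups. The part of gamma-delta T cells in the Traj profile was not tested.

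Among the other receptor segments, V segments of the alpha locus (Trav) fell in 19 and rose in 8 of 59 tested genes of 128, where 20.7% of all tested genes fell and 21.6% rose, with a summed level of 145 ± 5.55 and 132 ± 3.23 CPM (SD, n = 3). The 14 J segments of the beta locus (Trbj) summed to 31.7 ± 0.729 and 19.7 ± 0.888 CPM without overlap, and 4 of 12 tested fell and 0 rose, against the same background.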

How the data were processed

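Each library has its own table of counts, deposited by the authors as whole, unnormalised reads per gene. The submitters' processing notes name STAR 2.7.3a (alignment), mm10 and HTSeq 0.12.4 (counting). For the annotation release, the strandedness and the overlap mode, the sources used here state nothing. Summary lines (5 per table) entered neither totals nor tests; ambiguous reads made up 5.42% of a control library and 5.55% of a Satb1 cKO library, and reads with several alignments 3.05% and 3.03%. Groups and replicate numbers came from the sample titles. Symbols, positions and segment sequences came from GENCODE M21 (GRCm38, 1-based), matched on gene identifiers without version for 55141 of 55401 genes, all 60 members included. No 2 libraries held the same values.

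Counts were fitted with edgeR 4.0.16 in R 4.3.3 (filterByExpr, TMM, glmQLFit and glmQLFTest with group as the only term), and the call threshold was an adjusted p (Benjamini-Hochberg, over all 13364 tested genes) under 0.05. CPM used TMM-scaled library sizes. The SE of a log2 fold change was derived from the edgeR test, as its absolute value divided by the square root of the F statistic. Reads were summed per bin of 10 J numbers and library without a test, with 95% Wilson intervals for shares. Members with all 6 values were those tested, the 8 with most reads, Traj18, Traj33 and the ends of the row; others named were picked after their values were seen. DESeq2 1.42.0, no filter on low counts, a replicate block, other scalings, other bins and each library left out were tried. The members and lists were chosen with earlier results of these data known. The procedure was tested on simulated data.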

Additional observations from a re-analysis of the deposited data

How the results depend on the processing

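Of 131 alternative values of the summed levels and shares, 123 kept their direction and stayed within the spread of the libraries. The count of genes called, 5651, ran from 4684 to 6070, and was 7004 with library sizes from Trac reads. The count of segments called, 1, was 2 without a filter on low counts and 1 to 2 with a library left out. Per 1000 Trac reads, the log2 ratio of the summed members went from -0.31 to -0.11, that of J 1 to 10 from -0.43 to -0.23, that of J 21 to 30 from -0.25 to -0.047 and that of J 41 to 50 from 0.75 to 0.95, by the lower Trac level in Satb1 cKO. With bins shifted by 5 J numbers, the difference in share was -1.73 percentage points for J 16 to 25, 2.94 for J 26 to 35 and 1.27 for J 46 to 55, against -6.17, 0.63 and 2.56 for J 11 to 20, J 21 to 30 and J 41 to 50. With each library left out, the share difference of J 21 to 30 ran from -0.12 to 1.04, negative without Satb1 cKO replicate 2, and those of J 11 to 20, J 31 to 40 and J 41 to 50 from -7.25 to -4.80, from 4.62 to 7.39 and from 2.20 to 2.79. The summed members ran from a log2 ratio of -0.47, without Satb1 cKO replicate 3, to -0.24.

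Traj4 turned to 0.15 with library sizes from Trac reads, and with a library left out it ran from -0.19 to 0.13, over 0 without control replicate 1 (0.030) or Satb1 cKO replicate 2. Traj13 ran from -1.01 to 0.075, over 0 without Satb1 cKO replicate 2. Neither was called in any fit. The ratio of Traj61 alone was not used, since its reads were too few to compare. Replicate numbers showed no sign of pairs: deviations of same-numbered libraries correlated at 0.0215, -0.0125 and 0.0279. The labels do not say whether libraries were paired, and these values cannot settle it. With the replicate block, 5563 genes and 1 segment were called, against 5651 and 1. Depth limits the V end most, where 21 segments shared 21 to 41 reads per library.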
